A study of Mus musculus with 7 samples.

Results

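The genes examined were 10 genes of the corticosteroid axis, read in hippocampal RNA-seq of mice: the receptors Nr3c1 and Nr3c2, the enzyme gene Hsd11b1, and 7 genes that glucocorticoids are known to induce, Fkbp5, Sgk1, Tsc22d3, Zbtb16, Pdk4, Cdkn1a and Errfi1. They were listed by name, as a readout of stress from repeated injection, at a time when earlier results of these data were known. All 10 were found among the 55416 gene identifiers of the count tables, and all 10 were among the 13152 genes that passed the filter on low counts.

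The samples were hippocampi of male age-matched CD1 mice, an outbred strain. Untreated control mice gave 3 libraries, replicates 1 to 3. ONX-0914-treated mice gave 2 libraries, replicates 1 and 2, and had received ONX-0914, an inhibitor of non-constitutive proteasomes, by intraperitoneal injection at 10 mg/kg, 2 times per week for 2 months. DMSO-treated mice gave 2 libraries, replicates 2 and 3, and had been injected with the solvent on the same schedule. The control mice were not injected, so DMSO, the injection and the handling cannot be told apart in any comparison with them. The time between the last injection and dissection and the hour of dissection are not given in the sources used here.

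Corticosterone, the main glucocorticoid of mice, enters the brain and binds receptors that are held ready by heat shock proteins in the cytoplasm. In the hippocampus the mineralocorticoid receptor, encoded by Nr3c2, binds it with high affinity and is largely occupied at rest, whereas the glucocorticoid receptor, encoded by Nr3c1, is filled at the daily peak and under stress. The bound receptor moves to the nucleus and raises transcription of target genes, often through a palindromic DNA sequence called the glucocorticoid response element.

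The sequences below show where that element was found near the start sites of the genes studied. RefSeq promoter windows (build GRCm38.p6), each running from 250 bases before to 50 bases after a transcription start, were at hand for 8 of the 10 genes, in 17 windows, and for none of Nr3c1 and Zbtb16. The strict palindrome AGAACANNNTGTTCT, searched on both strands, occurred in 3 of all 32851 mouse windows, or 0.00913%, and Sgk1 held 1 of these 3. The looser form GNACANNNTGTNC, which contains the strict form, occurred in 156 windows, or 0.475%, and Sgk1 again was the gene of the 10 that held it. A single arm, TGTTCT, which also occurs inside the palindrome, was in 19.0% of all windows and in 4 of the 17, all of them windows of Sgk1 or Tsc22d3. The Sgk1 sequence is the 250 bases upstream of 1 of its 6 RefSeq starts, on the plus strand at chr10:21993640-21993889, within introns of 5 longer transcripts in GENCODE M21 and overlapping no exon. The capitals mark the palindrome, which began 189 bases before the start.
Sgk1: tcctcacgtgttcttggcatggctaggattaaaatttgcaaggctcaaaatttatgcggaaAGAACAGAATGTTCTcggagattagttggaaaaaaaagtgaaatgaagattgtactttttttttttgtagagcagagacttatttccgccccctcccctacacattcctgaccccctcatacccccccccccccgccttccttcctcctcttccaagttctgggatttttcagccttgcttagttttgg

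Among 20 further glucocorticoid-induced genes, 18 had windows and 3 held the looser form, none of them the strict one. They are set beside Sgk1 over 31 bases to show how the spacer and the outer bases differ, with the 13 matched bases in capitals. The windows lie on the plus strand at chr10:21993693-21993723 for Sgk1, chr8:94178986-94179016 for Mt1 and chr4:133240628-133240658 for Map3k6, and on the minus strand at chr14:8309876-8309906 for Fam107a.
Sgk1: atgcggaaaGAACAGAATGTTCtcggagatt
Mt1: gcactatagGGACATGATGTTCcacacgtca
Map3k6: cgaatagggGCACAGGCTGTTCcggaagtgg
Fam107a: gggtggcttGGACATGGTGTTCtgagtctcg
A match is a run of letters in a window and not a measured binding site.

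The libraries held 2842675 to 3877006 reads on genes, except ONX-0914 replicate 2 with 13782270. Mitochondrial genes took 0.8176% to 1.588% of reads in 6 libraries and 3.712% in ONX-0914 replicate 2. ONX-0914 replicate 1 stood apart in its regional markers. All 9 thalamus and midbrain markers were above every control there, with a summed level of 1091.8 CPM (counts scaled to library size) against 106.84 to 117.92 CPM in controls, and the 8 striatum markers summed to 1172.3 CPM against 169.76 to 200.2 CPM. All 5 markers of the dentate gyrus, of CA1 and of CA3 were below every control in that library, at 67.6 CPM against 266.93 to 335.95 CPM in the dentate list. Hippocampal markers were present in every library. In ONX-0914 replicate 2 the thalamus and midbrain list summed to 138.43 CPM and the dentate list to 251.98 CPM. In bulk tissue, fewer cells of a type and less RNA per cell cannot be told apart. Because of these libraries, the ONX-0914 differences of Nr3c2, Hsd11b1 and the induced genes are also given with only 1 of the 2 ONX-0914 libraries, where the lone library was assumed to vary like the other groups.

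**Figure D1:**
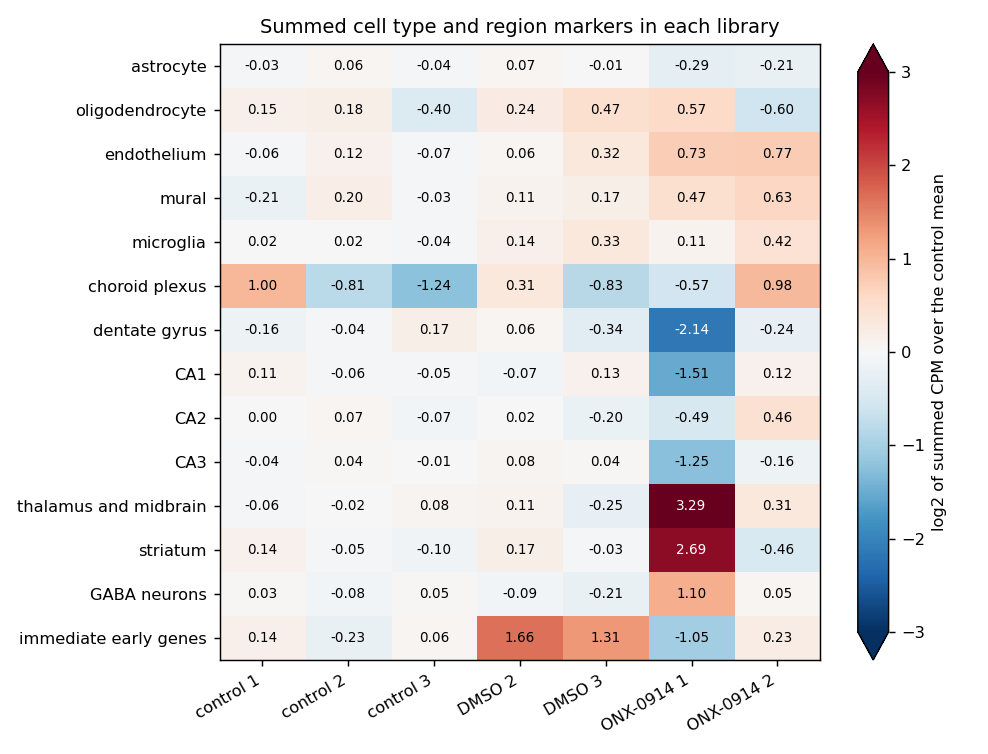
Summed CPM of each marker list (rows) in each library (columns), as log2 of the ratio to the control mean, with the value printed in each cell and the colour scale ending at ±3. ONX-0914 replicate 1 stands apart in the thalamus and midbrain, striatum, dentate gyrus, CA1 and CA3 rows, and both DMSO libraries in the row of immediate early genes.

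None of the 10 genes passed a false discovery rate (FDR) of 0.05 in any of the 4 comparisons (edgeR, all 7 libraries). In the hippocampi of DMSO-treated mice, 9 of the 10 nevertheless lay wholly outside the control range. Sgk1, Tsc22d3, Pdk4, Cdkn1a, Errfi1 and both receptor genes were above it, and Fkbp5 and Zbtb16 were below it. Over all tested genes 30.7% had DMSO and control libraries that did not overlap, so that a count of non-overlapping groups on its own is common with so few libraries. After ONX-0914, Cdkn1a was the gene above all controls, and Fkbp5, Zbtb16, Pdk4 and Errfi1 were below all of them, 5 of 10 beside 33.2% over all tested genes.

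**Figure D2:**
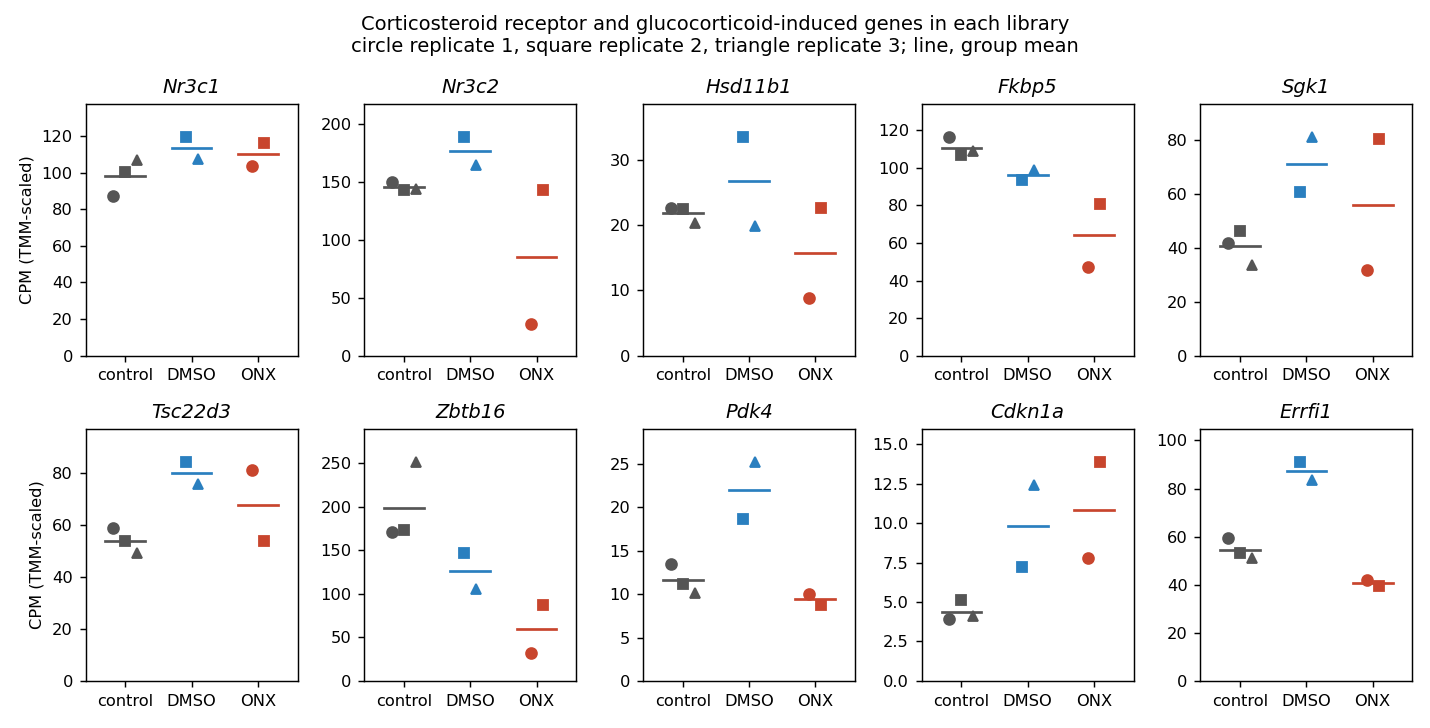
CPM scaled by TMM factors (y axes, each starting at 0) of the 10 genes in the 3 groups, with circles for replicate 1, squares for replicate 2, triangles for replicate 3 and lines for group means; ONX stands for ONX-0914. Errfi1, Pdk4 and Nr3c2 are higher in both DMSO libraries than in the other 5 libraries, and the pair of ONX-0914 points lies far apart for Nr3c2, Hsd11b1, Sgk1 and Zbtb16.

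Nr3c1 (ENSMUSG00000024431), the glucocorticoid receptor gene, varied little. It measured 87.3, 100.4 and 106.7 CPM in controls 1 to 3, 119.7 and 107.3 CPM in DMSO replicates 2 and 3, and 103.7 and 116.1 CPM in ONX-0914 replicates 1 and 2. Both DMSO libraries were above the controls, the lower of them by under 1 CPM, and the ONX-0914 libraries overlapped the controls. The Log2FC was 0.21 (SE 0.17) for DMSO and 0.16 (SE 0.17, FDR = 0.613) for ONX-0914 against control.

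Nr3c2 (ENSMUSG00000031618), the mineralocorticoid receptor gene, measured 149.8, 143.3 and 144 CPM in controls and 189 and 165 CPM in the DMSO libraries. In the ONX-0914 libraries it measured 27.3 CPM in replicate 1 and 143.4 CPM in replicate 2. The low value was therefore that of a single library, the one with few hippocampal and many thalamic and striatal marker transcripts, and the other ONX-0914 library lay within the control range. The Log2FC for ONX-0914 against control was −0.75 (SE 0.53, FDR = 0.461), −0.03 without replicate 1 and −2.42 without replicate 2. The part of the regional markers in this difference was not tested. The ratio of Nr3c2 to Nr3c1 CPM was 1.35 to 1.72 in controls, 1.54 and 1.58 after DMSO, and 0.263 and 1.24 in ONX-0914 replicates 1 and 2.

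Hsd11b1 (ENSMUSG00000016194) encodes the enzyme that regenerates active corticosterone from its inert 11-keto form inside cells. It measured 22.7, 22.5 and 20.3 CPM in controls, 33.7 and 19.9 CPM after DMSO, and 8.77 and 22.6 CPM after ONX-0914. The DMSO libraries fell on either side of the controls, and ONX-0914 replicate 1 was again the low library. The Log2FC was 0.30 (SE 0.39) for DMSO and −0.42 (SE 0.39, FDR = 0.573) for ONX-0914 against control, the latter 0.04 without replicate 1 and −1.31 without replicate 2. Hsd11b2, whose product inactivates corticosterone, had 0 counts in all 7 libraries, and was named after its values were seen.

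Per kilobase of GENCODE M21 exon length, the control level was highest for Zbtb16, at 37.6 ± 8.69 CPM per kb (SD, n = 3), followed by Nr3c2 at 22.5 ± 0.551. Errfi1, Nr3c1, Tsc22d3 and Fkbp5 lay between 11.7 and 15.2 CPM per kb, and Nr3c1 overlapped Tsc22d3 and Tsc22d3 overlapped Fkbp5 in their ranges over the controls. Sgk1 was at 8.30 ± 1.31, Hsd11b1 at 5.14 ± 0.317, Pdk4 at 3.30 ± 0.489 and Cdkn1a at 1.24 ± 0.189 CPM per kb, each with a range apart from its neighbours.

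The genes whose level was lower in both injected groups were Fkbp5 and Zbtb16. Fkbp5 (ENSMUSG00000024222) encodes a co-chaperone that lowers the receptor's affinity for hormone and is itself induced by the receptor, which forms a short feedback loop. It measured 116.8, 106.7 and 108.9 CPM in controls, 93.8 and 99.2 CPM after DMSO, and 47.1 and 80.9 CPM after ONX-0914. The 3 groups did not overlap, with controls highest and ONX-0914 lowest. Against control the Log2FC was −0.20 (SE 0.23) for DMSO and −0.78 (SE 0.23, FDR = 0.160) for ONX-0914. The ONX-0914 difference was −0.46 without replicate 1 and −1.23 without replicate 2.

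Zbtb16 (ENSMUSG00000066687), which encodes the zinc finger repressor PLZF, measured 170.7, 173 and 251.5 CPM in controls. The DMSO libraries were at 146.9 and 105.9 CPM, and the ONX-0914 libraries at 31.8 and 86.7 CPM. Again the 3 groups did not overlap, and control replicate 3 was well above the other controls. The Log2FC was −0.65 (SE 0.40) for DMSO and −1.72 (SE 0.41, FDR = 0.119) for ONX-0914 against control. The ONX-0914 difference passed the threshold in DESeq2 (FDR = 0.00157) and in edgeR with no filter on low counts (FDR = 0.00344). Far more of all tested genes passed in those settings, as given at the end. In every other setting that kept both ONX-0914 libraries it did not pass, with an FDR of up to 0.395. With ONX-0914 replicate 2 alone the Log2FC was −1.21 and with replicate 1 alone −2.65.

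Errfi1 and Pdk4, like Nr3c2, were higher in both DMSO libraries than in every control and every ONX-0914 library. Errfi1 (ENSMUSG00000028967), an inhibitor of the epidermal growth factor receptor, measured 59.3, 53.2 and 51.0 CPM in controls, 91.1 and 83.5 CPM after DMSO, and 42.1 and 39.3 CPM after ONX-0914. Its replicates agreed closely within each group, and the 3 groups did not overlap. The Log2FC was 0.68 (SE 0.16) for DMSO against control, −0.42 (SE 0.17, FDR = 0.234) for ONX-0914 against control, and −1.10 (SE 0.18, FDR = 0.0965) for ONX-0914 against DMSO. The last was the lowest FDR of any of the 10 genes. This difference passed in DESeq2 (FDR = 0.00339) and in edgeR with no filter on low counts (FDR = 0.0319). It did not pass in any other setting that kept both ONX-0914 libraries. With replicate 2 as the lone ONX-0914 library it was −1.16 and with replicate 1 alone −1.06. The part of the regional markers in this difference was not tested.

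Pdk4 (ENSMUSG00000019577), a kinase that holds back entry of pyruvate into the citric acid cycle, measured 13.5, 11.1 and 10.1 CPM in controls, 18.7 and 25.2 CPM after DMSO, and 10.0 and 8.75 CPM after ONX-0914. The ONX-0914 libraries were below the lowest control, replicate 1 by under 1 CPM. The Log2FC was 0.92 (SE 0.25) for DMSO and −0.31 (SE 0.26, FDR = 0.528) for ONX-0914 against control. For ONX-0914 against DMSO it was −1.23 (SE 0.27, FDR = 0.147). With replicate 2 as the lone ONX-0914 library this was −1.31, and with replicate 1 alone −1.11.

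Sgk1 (ENSMUSG00000019970), a kinase that acts on ion channels and transporters and whose window holds the palindrome shown above, measured 41.9, 46.4 and 33.7 CPM in controls and 60.9 and 81.4 CPM after DMSO. The ONX-0914 libraries were at 31.8 CPM in replicate 1 and 80.4 CPM in replicate 2. Both DMSO libraries were above the controls, whereas the ONX-0914 libraries lay below and above all of them. The Log2FC was 0.80 (SE 0.36) for DMSO and 0.48 (SE 0.36, FDR = 0.479) for ONX-0914 against control. The ONX-0914 value turned with the library, at 0.97 without replicate 1 and −0.36 without replicate 2.

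Tsc22d3 (ENSMUSG00000031431) encodes GILZ, a leucine zipper protein that mediates part of the anti-inflammatory action of glucocorticoids. It measured 58.9, 53.7 and 49.4 CPM in controls, 84.4 and 76.1 CPM after DMSO, and 81.2 and 54.1 CPM after ONX-0914. ONX-0914 replicate 1 was at the DMSO level and replicate 2 within the controls. The Log2FC was 0.57 (SE 0.21) for DMSO and 0.32 (SE 0.21, FDR = 0.430) for ONX-0914 against control. The ONX-0914 difference was 0.00 without replicate 1 and 0.59 without replicate 2.

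Cdkn1a (ENSMUSG00000023067) encodes the cell cycle inhibitor p21, which p53 as well as glucocorticoids can induce. It was the least abundant of the 10, with 11, 19 and 15 counts in controls, 27 and 35 counts after DMSO, and 31 and 211 counts after ONX-0914. As CPM these were 3.90, 5.16 and 4.11 in controls, 7.21 and 12.4 after DMSO, and 7.77 and 13.9 after ONX-0914. All 4 injected libraries were above all 3 controls, with a Log2FC of 1.13 (SE 0.41) for DMSO and 1.34 (SE 0.38, FDR = 0.146, or 0.0498 with no filter on low counts) for ONX-0914. With ONX-0914 replicate 2 alone the latter was 1.63, and with replicate 1 alone 0.80. No other setting that kept both ONX-0914 libraries brought this difference below the FDR threshold.

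**Figure D3:**
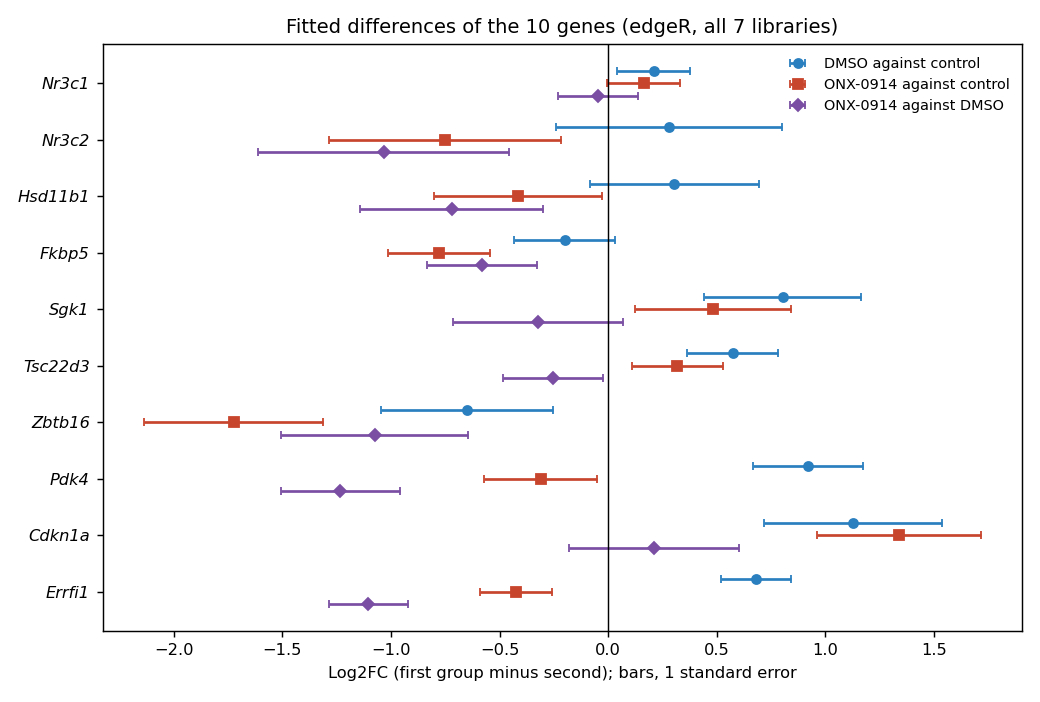
Log2FC of the 10 genes (x axis, first group minus second; bars, 1 standard error of the edgeR fit) for DMSO against control, ONX-0914 against control and ONX-0914 against DMSO. The first pair of comparisons shares the control libraries; for Errfi1 the values are 0.68, −0.42 and −1.10, and Zbtb16 has the lowest value, −1.72.

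For DMSO against control, which asks what solvent and injection did, the median Log2FC of the 10 genes was 0.44, beside 0.00 over all tested genes. At an unadjusted p under 0.05, 4 of the 10 were higher (Tsc22d3, Pdk4, Cdkn1a, Errfi1) and 0 lower, beside 1.48% and 1.17% of tested genes, or 2.65% in either direction. By FDR, where 2 genes or 0.0152% of those tested passed, each of the 10 was at 0.9999 (edgeR). This outcome changed with the libraries in the fit, which shares 1 estimate of the spread. With control and DMSO libraries alone, 141 genes passed, and 4 of the 10 were among them: Errfi1 (FDR = 0.00573), Sgk1 (FDR = 0.0142), Tsc22d3 (FDR = 0.0283) and Zbtb16 (FDR = 0.0435, lower after DMSO). Which of the 10 passed also changed when ONX-0914 replicate 1 alone or replicate 2 alone was left out. In the same libraries all 6 immediate early genes, which neuronal activity raises, were above every control in both DMSO libraries, with a sum of 610.57 to 777.62 CPM against 209.81 to 271.54 CPM. Microglia markers summed to 277.02 and 315.24 CPM against 243.8 to 255.21 CPM in controls, with 4 of 6 above all controls. Oligodendrocyte markers summed to 7641.9 and 9012.5 CPM against 4911.1 to 7365.9 CPM, with 2 of 6 above. Of all tested genes, 15.7% were above all controls in both DMSO libraries. The part of these 3 marker lists in the values of the 10 genes was not tested.

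For ONX-0914 against control the median over the 10 was −0.36, beside 0.05 over all tested genes. It was −0.018 without ONX-0914 replicate 1, beside 0.0079 over all tested genes. Without replicate 2 it was −0.36, beside 0.025. An unadjusted p under 0.05 was reached by 1 higher (Cdkn1a) and 3 lower (Fkbp5, Zbtb16, Errfi1), beside 10.6% and 8.04% of tested genes, and by FDR 15 genes or 0.114% passed, none of them among the 10. The pair of ONX-0914 libraries differed from each other by more than 2-fold in 4 of the 10 genes (Nr3c2 5.25-fold, Zbtb16 2.73-fold, Hsd11b1 2.58-fold, Sgk1 2.53-fold), beside 26.7% of all tested genes. No member of the list differed by that much among the controls or between the DMSO libraries, beside 10.8% and 5.4% of all tested genes. Relative to the control range, 7 of the 10 were below it and 2 above in ONX-0914 replicate 1, and 4 below and 3 above in replicate 2; with those libraries alone, 69.0% and 78.6% of tested genes lay outside it. Endothelial markers summed to 278.35 and 286.85 CPM in ONX-0914 replicates 1 and 2 against 160.71 to 182.67 CPM in controls, with 5 of 6 above all controls. Mural markers summed to 148.32 to 165.47 CPM against 92.6 to 122.96 CPM, with 2 of 5 above. Astrocyte markers summed to 4244.6 to 4479.4 CPM against 5063.1 to 5419 CPM, with 1 of 6 below in both libraries. Of all tested genes, 16.9% were above all controls in both ONX-0914 libraries and 16.3% below, so the astrocyte count was near that share. Single astrocyte markers went both ways, 3 above and 2 below every control in replicate 1, and 1 above and 4 below in replicate 2. The part of the endothelial, mural and astrocyte markers in the values of the 10 genes was not tested.

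For ONX-0914 against DMSO, the comparison in which both groups had been injected, the median was −0.65, beside 0.05 over all tested genes, and 9 of the 10 had a negative Log2FC. The median of the 10 was −0.30 without ONX-0914 replicate 1, which stood apart in its regional markers, and −1.08 without replicate 2. Of the 10, 5 were below both DMSO libraries in both ONX-0914 libraries (Fkbp5, Zbtb16, Pdk4, Errfi1, Nr3c2) and 0 were above, beside 19.7% and 20.8% of tested genes, or 40.5% in either direction. An unadjusted p under 0.05 was reached by 4 of the 10, all lower (Errfi1, Pdk4, Zbtb16, Fkbp5), beside 6.65% of tested genes lower and 8.07% higher, and by FDR 6 genes or 0.0456% passed. Arc, an immediate early gene and the only gene of all lists examined that passed in any comparison, fell by 2.96 on the log2 scale (SE 0.32, FDR = 0.0371, edgeR) from 446 and 343 CPM after DMSO to 34.3 and 65.7 CPM after ONX-0914.

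When both injected groups were averaged and set against control, Cdkn1a (Log2FC 1.23, SE 0.34) and Tsc22d3 (0.45, SE 0.18) were higher and Zbtb16 (−1.19, SE 0.32) and Fkbp5 (−0.49, SE 0.19) lower at an unadjusted p under 0.05, 2 in each direction beside 4.05% and 4.32% of tested genes, 8.36% in all. All 4 injected libraries were above the controls for 1 of the 10 (Cdkn1a) and below them for 2 (Zbtb16, Fkbp5), beside 4.30% and 4.74% of tested genes, 9.04% in all. The lowest FDR among the 10 was 0.511 (edgeR), and 3 genes or 0.0228% passed in all.

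Of 20 other glucocorticoid-induced genes, 17 could be tested and none passed by FDR in any comparison. After DMSO, 5 of the 17 were above all controls (Ddit4, Per1, Bcl6, Dusp1, Klf15) and Gjb6, a connexin gene, was below (−0.28, SE 0.29), a count near the 30.7% of all tested genes, and the list's median Log2FC was 0.04. Ddit4, an inhibitor of the growth kinase mTORC1, measured 100.5, 117.8 and 85.8 CPM in controls, 157 and 171 CPM after DMSO, and 70.7 and 34.7 CPM after ONX-0914. Like Errfi1, it was highest in the DMSO libraries and lowest in the ONX-0914 libraries with no overlap among groups. Its Log2FC was 0.70 (SE 0.29) for DMSO against control, −0.96 (SE 0.30, FDR = 0.170) for ONX-0914 against control and −1.66 (SE 0.33, FDR = 0.121) for ONX-0914 against DMSO. For ONX-0914 against control, Klf15 was the gene of the 17 above all controls (Log2FC 0.36, SE 0.25), Ddit4 and Per1 were below, beside 33.2% of all tested genes in either direction, and the median was 0.28. For ONX-0914 against DMSO, 3 were above, Sult1a1 by the most (1.80, SE 0.71), and 4 were below, again near the 40.5% of all tested genes. The metallothionein gene Mt1, whose window is printed above, was at 25.5 to 40.1 CPM in 6 libraries and at 192.9 CPM in ONX-0914 replicate 2.

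**Figure D4:**
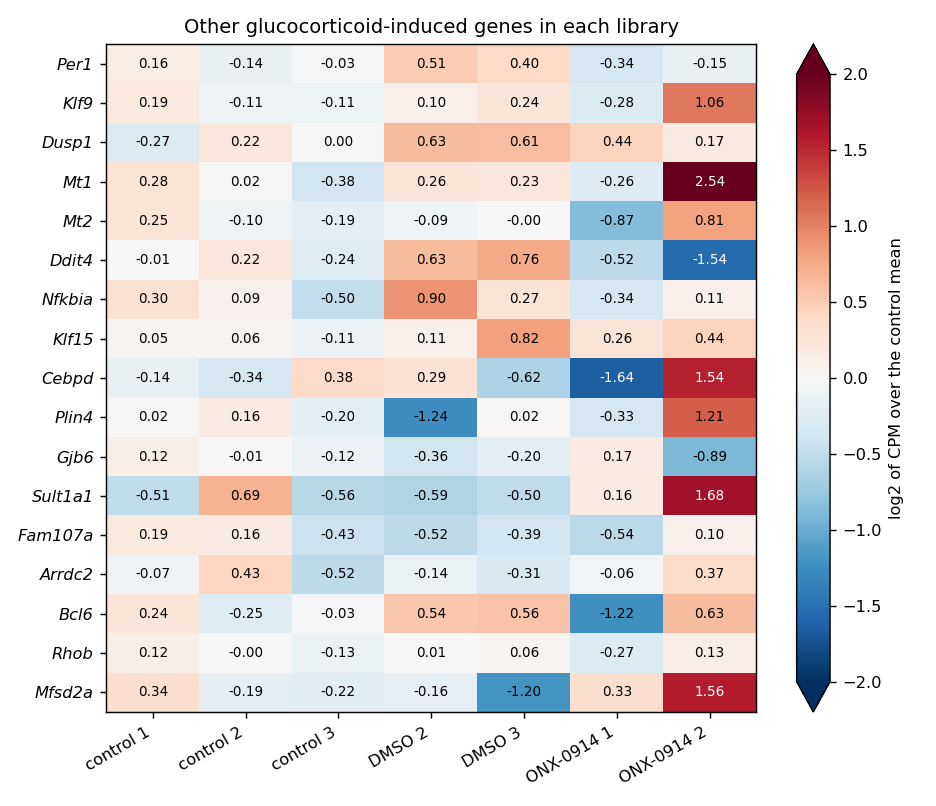
CPM of the 17 tested genes of the second glucocorticoid list (rows) in each library (columns) as log2 of the ratio to the control mean, with the value printed in each cell and the colour scale ending at ±2. The ONX-0914 columns differ from each other in Mt1, Cebpd, Sult1a1 and Bcl6, and Ddit4 is positive in both DMSO columns and negative in both ONX-0914 columns.

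The chaperones and coregulators that hold or assist the receptor, 9 genes, were all tested, and none passed by FDR. Hsp90ab1, a cytoplasmic HSP90, was below all controls after ONX-0914, at 3340 and 1482 CPM against 4197 to 4702 CPM (Log2FC −0.88, SE 0.36, FDR = 0.244). After DMSO, 4 of the 9 were above the controls, Ptges3 by the most (0.42, SE 0.28), beside 15.7% of all tested genes. At an unadjusted p under 0.05 (edgeR), 0 of the 9 were higher and 0 lower after DMSO. Against DMSO, Hsp90ab1 (−0.99, SE 0.39) and Ptges3 were below in both ONX-0914 libraries, 2 of the 9 beside 19.7% of all tested genes.

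Of 4 genes of steroid supply or related receptors, 3 were tested and none passed. Pgr, the progesterone receptor gene, was below the controls after DMSO (−0.34, SE 0.20), and H6pd, whose product feeds cofactor to the Hsd11b1 enzyme, was the gene furthest above DMSO after ONX-0914 (0.90, SE 0.43).

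Of 5 corticotropin-releasing hormone genes, 4 were tested and none passed. Crh, which encodes the hypothalamic releasing hormone and is also made by hippocampal interneurons, had 3, 6 and 6 counts in controls, 5 and 3 after DMSO, and 16 and 84 after ONX-0914. As CPM it was at 1.06 to 1.65 in controls, 1.07 to 1.34 after DMSO and 4.01 to 5.53 after ONX-0914, with a Log2FC of 1.73 (SE 0.43, FDR = 0.127) against control and 2.00 (SE 0.51, FDR = 0.182) against DMSO. GABA neuron markers summed to 1271.2 CPM in ONX-0914 replicate 1, 613.5 CPM in replicate 2 and 563.48 to 612.66 CPM in controls. Their part in the Crh values was not tested. Avpr1b was above the controls after DMSO (1.07, SE 0.78) and below DMSO after ONX-0914 (−2.05, SE 0.81), and Crhbp was below the controls after DMSO (−0.25, SE 0.39). Avpr1b was scarce, at 0.71 to 2.19 CPM in controls, 2.84 to 2.94 CPM after DMSO and 0 to 0.92 CPM after ONX-0914.

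The gene whose profile over the 7 libraries was nearest to each of the 10 was found by the root mean square difference of mean-centred log2 CPM. The nearest to Errfi1 was Jun, an immediate early gene, at 0.0826 log2 units, followed by Mphosph10 and Car12. Fkbp5 was nearest to Camk2b (0.0589), Nr3c2 to Pcdh20 (0.112), Tsc22d3 to Sat1 (0.0791), Hsd11b1 to Rara (0.0865) and Nr3c1 to Aff1 (0.0466). Sgk1 was nearest to Brk1 (0.113), Cdkn1a to Tmem173 (0.127), Pdk4 to Enox2 (0.138) and Zbtb16 to Plekhg5 (0.205). These distances describe 7 libraries and carry no test.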

How the data were processed

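The 7 hippocampal RNA-seq libraries came as deposited tables of raw read counts by gene, 1 table for each library, which the authors had not normalised. The submitters' processing notes name Trimmomatic 0.39, STAR 2.7.3a, featureCounts 2.00 and the build GRCm39. The annotation and the strand setting are not given in the sources used here. Lines of unassigned reads (no feature, 4.747% to 6.487%; ambiguous, 3.754% to 3.919%) stayed out of library sizes and tests. Symbols came from GENCODE M21, which named 52083 of 55416 identifiers, and 28594 identifiers had no count.

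Genes passing filterByExpr (minimum count 10) over the 3 groups were scaled by TMM (factors 0.96556 to 1.1028) and tested with the quasi-likelihood F test of edgeR 4.0.16 in R 4.3.3, with 1 mean per group over all 7 libraries and Benjamini-Hochberg adjustment over all 13152 tested genes. CPM values use the TMM factors. DESeq2 1.42.0 and limma 3.58.1 (voom) were alternatives, with other scaling, filters, sample sets, a replicate block and each library left out. The edgeR fit was tried on simulated counts with known changes, for ONX-0914 against control and DMSO against control. A list is described by counts and its median, and groups are called non-overlapping where every library of one lies beyond every library of the other.

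The members and lists were chosen with earlier results of these data known. All 10 genes are named in every comparison; from the other lists, genes passing FDR and the largest non-overlapping difference in each direction are named, and Mt1 and Hsd11b2 were added once their values were known. The result of 1 gene that this rule names is not reported here. Replicates are separate libraries, but the sources used here do not say whether each was a separate mouse, so p-values measure only the spread between these libraries. Depth was 2842675 to 13782270 reads on genes per library, and counting error is largest for scarce genes such as Cdkn1a.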

Additional observations from a re-analysis of the deposited data

How the results depend on the processing

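With 2 treated libraries per group, differences near the spread between ONX-0914 replicates 1 and 2 were not detectable, and Cdkn1a had few counts. The numbers of genes passing FDR were 15, 2, 6 and 3 for ONX-0914 against control, DMSO against control, ONX-0914 against DMSO and injected against control, and 0 of the 10 genes passed in each (edgeR; at an unadjusted p under 0.05, 4 in each). In that order DESeq2 gave 388, 9, 245 and 35 genes, with 1 of the 10 passing in each ONX-0914 comparison, and no filter gave 578, 11, 297 and 28 genes, with 2 of the 10 against control and 1 against DMSO. limma voom gave 0 genes for DMSO against control and 1 for injected against control. At least 10 counts in every library gave 0, 10 and 0 in the last 3 comparisons. For ONX-0914 against DMSO, RLE size factors gave 11 and total counts 3. With the compared groups alone the first 3 comparisons gave 3, 141 and 0 genes, and 4 of the 10 passed in the second. Replicate numbers are shared by at most 2 pairs in any comparison of 2 groups. The deviations of same-numbered libraries correlated at −0.099 to 0.066. Because deviations in a group of 2 libraries mirror each other, these correlations cannot decide whether the numbers pair the libraries. The numbers were not taken to pair them. With the replicate block 1, 0, 0 and 3 genes and 0 of the 10 passed. Leaving out 1 library gave 0 to 7024, 0 to 146, 0 to 6311 and 1 to 3929 genes, and 0 to 5, 0 to 5, 0 to 7 and 0 to 4 of the 10. The high counts came without ONX-0914 replicate 1 (7024, 127, 6311 and 3929 genes) or replicate 2 (2594, 146, 2325 and 1586), where a lone ONX-0914 library was assumed to vary like the other groups. Total counts shifted the median of all genes by 0.14 in ONX-0914 against control and 0.13 in ONX-0914 against DMSO.

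Of the 670 Log2FC values of the 10 genes under alternatives, 17 turned direction, 607 kept direction and call, and 46 kept direction and passed FDR where the reported value had not. Leaving out 1 library, the Log2FC for ONX-0914 against control ran from −1.31 to 0.044 for Hsd11b1, −0.0026 to 0.59 for Tsc22d3 and −0.36 to 0.97 for Sgk1, with ONX-0914 replicates 1 and 2 setting these ends. For DMSO against control Hsd11b1 ran from −0.13 without DMSO replicate 2 to 0.62 without replicate 3, and Nr3c2 was −0.056 with the replicate block. For ONX-0914 against DMSO the ranges were −0.14 to 0.028 for Nr3c1, −0.29 to 0.63 for Cdkn1a, −1.15 to 0.18 for Sgk1 and −0.58 to 0.0091 for Tsc22d3, and Nr3c1 was 0.087 with total counts and 0.048 with the block. For injected against control Hsd11b1 ran from −0.49 to 0.19 and was 0.025 with total counts, and Nr3c2 ran from −1.07 to 0.13. Beyond the leave-one-out settings, the cause was not tested. Among alternatives chosen after seeing the data, the members outside the other group's range for DMSO against control stayed at 9 under RLE, total counts and without either ONX-0914 library (30.5% to 30.8% of tested genes). For ONX-0914 against control they went from 5 to 6 under RLE, 6 under total counts, 8 without ONX-0914 replicate 1 and 9 without replicate 2, where the share of tested genes outside the range rose from 33.2% to 78.6% and 69.0%. For ONX-0914 against DMSO they were 5, 5, 7 and 8, and without replicates 1 and 2 the share rose from 40.5% to 85.1% and 77.8%. For injected against control, from 3, they were 3, 5, 5 and 4, with the share at 9.04% and, without replicates 1 and 2, 15.7% and 16.3%.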
